A study of Homo sapiens with 6 samples.

Results

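The kinesin motor genes were examined in total RNA sequencing of 6 neuroblastoma cell line libraries, 3 with titles naming ethanol (EtOH) and 3 naming tetracycline (Tet). Members were the protein-coding genes whose symbol is KIF followed by a digit, or *KIFC1*, *KIFC2* or *KIFC3*. Of 60651 genes in each deposited table, 42 met this rule, and 13 further symbols of the same pattern were left out because they are pseudogenes, antisense transcripts or divergent long non-coding RNAs. The members were divided by name into 12 mitotic kinesins (*KIF11*, *KIF14*, *KIF15*, *KIF18A*, *KIF18B*, *KIF20A*, *KIF20B*, *KIF22*, *KIF23*, *KIF2C*, *KIF4A* and *KIFC1*) and 30 others. The 30 others comprised 15 kinesins known mainly for cargo transport or axonal functions and 15 remaining members.

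Per the labels, Tet cells received tetracycline for 5 days, and a tag marks the EtOH libraries as control and the Tet libraries as induction under the heading of a knockdown. The labels give no single cell model. Their titles name IMR575, a line with amplified *MYCN*, whereas the protocol text describes SK-N-SH cells that carry an inducible *MYCN* construct under the tetracycline repressor, kept as single clones under G418-BC and blasticidin in both arms. The study itself describes an inducible *MYCN* expression line and a derivative of IMR-5/75 in which a *MYCN* shRNA can be induced. The libraries are therefore called by their title alone, and a direction below is that of Tet against EtOH. *MYCN* had 158, 256 and 156 CPM (library-size scaled counts) in EtOH replicates 1 to 3 and 197, 200.1 and 145 CPM in the Tet replicates. These values overlapped between the labels (log2 fold change -0.07, SE 0.23, adjusted p = 0.956), so *MYCN* gave no check of the labels.

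Kinesins are motor proteins that turn ATP hydrolysis into movement along microtubules or into the shortening of microtubule ends. Mitotic kinesins build the bipolar spindle, move and align chromosomes and cut the daughter cells apart, and most are made in dividing cells as they approach mitosis. Transport kinesins carry vesicles, mitochondria and protein complexes towards microtubule plus ends, and neurons depend on them to supply their axons. Neuroblastoma arises from precursors of the sympathetic nervous system, so its cells can both divide and carry neuronal transport genes.

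Genes of late cell cycle phases are known to share promoter elements, among them the CCAAT box and the cell cycle genes homology region (CHR), a short AT-rich hexamer near the start site. Of the 42 kinesins, 34 had at least 1 window of 300 bases around an annotated start site (250 before and 50 after it) in RefSeq, GRCh38.p14. Both strands were searched for 6 motifs. These were CCAAT, the CHR hexamer TTTGAA and its variants TTTAAA and TTCGAA, the E-box CACGTG bound by MYC family proteins, and the E2F-type motif CGCGAAA. No motif contains another, and the E-box and both CHR variants read the same on either strand. The stretches of 100 bases directly upstream of a RefSeq start site are shown for 3 mitotic kinesins that hold both elements and for 2 transport kinesins as a contrast, with CCAAT boxes and CHR hexamers of either strand in capitals and all on the plus strand of the genome. *KIF20A* lies at chr5:138179012-138179111, *KIF11* at chr10:92593030-92593129, *KIF4A* at chrX:70290004-70290103, *KIF5C* at chr2:148875127-148875226 and *KIF1B* at chr1:10210470-10210569. None of these bases lies in an exon of the deposited annotation.
KIF20A: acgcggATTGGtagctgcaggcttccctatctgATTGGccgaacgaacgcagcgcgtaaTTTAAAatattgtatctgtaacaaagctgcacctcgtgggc
KIF11: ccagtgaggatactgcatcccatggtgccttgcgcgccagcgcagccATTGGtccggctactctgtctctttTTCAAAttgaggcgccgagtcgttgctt
KIF4A: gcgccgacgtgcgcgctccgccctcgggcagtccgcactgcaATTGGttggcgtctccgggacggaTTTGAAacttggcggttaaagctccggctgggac
KIF5C: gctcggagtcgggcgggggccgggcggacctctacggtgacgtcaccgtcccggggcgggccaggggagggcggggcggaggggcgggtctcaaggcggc
KIF1B: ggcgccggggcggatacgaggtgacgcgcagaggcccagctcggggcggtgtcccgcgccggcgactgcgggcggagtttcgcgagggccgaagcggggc

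The stretches of *KIF5C* and *KIF1B* hold no capitals, but their longer windows do contain inverted CCAAT boxes, 222 bases upstream in *KIF5C* and 157, 126 and 121 bases upstream of annotated start sites in *KIF1B*, which makes them 2 of the 4 transport kinesins with that box. The *KIF20A* stretch held inverted CCAAT boxes (ATTGG) that begin 94 and 67 bases before the start site, followed by TTTAAA 41 bases before it. In *KIF11* an inverted CCAAT box began 53 bases and an inverted TTTGAA, seen as TTCAAA in the strand shown, 28 bases upstream, and in *KIF4A* the distances were 58 and 34 bases. A CHR hexamer was present in a window of 12 of 12 mitotic kinesins, of 4 of the 22 other kinesins with a window (18.2%) and of 29% of all 27305 genes with one. A CCAAT box was found for 10 of 12 mitotic kinesins (83.3%), 8 of 22 others (36.4%) and 39.7% of all genes. Both elements together occurred in 1 window of 10 of 12 mitotic kinesins (83.3%), of 3 of 22 others (*KIF24*, *KIF4B* and *KIF5B*, 13.6%) and of 11.7% of all genes. The 2 mitotic kinesins with a CHR hexamer and no CCAAT box were *KIF15*, with TTTGAA 35 bases upstream, and *KIF2C*, with TTTAAA 3 bases upstream. The E-box occurred in no window of the 34 kinesins against 8.77% of all genes, and the E2F-type motif in windows of *KIF17* and *KIF1B* alone against 1.6%. These counts describe letters in a window and carry no test.

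The 6 libraries held between 27933378 and 40498065 counts, so that 3 counts corresponded to 0.0741 to 0.107 CPM. In these bulk values fewer cells of a type and less RNA per cell cannot be told apart, and the labels do not say whether replicates came from separate cultures. The study's methods state independent biological replicates for in vitro work in general. A p-value here measures the spread between these libraries. Markers of sympathetic neuroblasts were present (summed level 969 to 1105 CPM in EtOH and 1328 to 1472 CPM in Tet over 13 genes), although *TH*, the first enzyme of catecholamine synthesis, had 1 count in all. Immune markers summed to between 0.661 and 1.61 CPM, with *CD3E* at 0 counts, and Schwann cell markers to between 1.66 and 5.59 CPM, with *S100B* at 0. EtOH replicate 2 stood apart from the other EtOH libraries. Mitochondrial genes took 4.12% of its counts against 5.86% or more in the other libraries. Its median deviation from the 6-library mean was 0.25 log2 units for genes with up to 40% GC in their exons and -0.33 for genes over 60% GC. For genes over 60% GC, Tet replicate 3 had a median deviation of 1.03 log2 units.

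Levels were compared between kinesins as TPM, which divides counts by the length of all annotated exons before scaling each library to the same total. *KIF5B*, the widely expressed heavy chain of kinesin-1, was the highest with 333 ± 96.6 TPM in EtOH and 325 ± 40.5 TPM in Tet (SD, n = 3). It was followed by *KIF21A*, a kinesin-4 that restrains microtubule growth at the cell cortex (215 ± 41.1 and 218 ± 45.3 TPM), and by the mitotic *KIF20B* (228 ± 151 and 161 ± 45.7), *KIF11* (182 ± 104 and 133 ± 39.9), *KIF14* (150 ± 86.1 and 103 ± 25.5) and *KIF15* (120 ± 21.7 and 79.4 ± 12.2). Neighbours in this order overlapped in their ranges over the libraries, since *KIF20B* alone ran from 130 to 402 TPM and *KIF21A* from 182 to 269 TPM. The median level was 28.8 TPM over the 12 mitotic kinesins and 3.31 TPM over the 30 others. *KIF5C*, a neuronal kinesin-1 heavy chain, had 29.0 ± 1.63 and 39.4 ± 3.82 TPM. Its level per length is low against its counts because the union of its annotated exons spans 33151 bases.

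The lowest members were hardly detected. *KIF2B*, a kinesin-13 of the spindle, had 0 counts in all 6 libraries, and *KIF19*, *KIF12*, *KIF25* and *KIF17* had 2, 3, 6 and 14 counts in all. *KIFC2* and *KIF26B* had a highest level of 0.705 and 0.654 CPM. These 7 members did not pass the filter on low counts, which left 35 kinesins for the test: 12 mitotic, 14 transport and 9 remaining.

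Levels tended to be lower with a higher GC content of the exons. Over the 41 kinesins with a count, Spearman's rho between GC content and mean TPM was -0.81. It was -0.86 over the 12 mitotic kinesins and -0.86 over the 29 kinesins with a mean of at least 1 CPM. The same measure over 11050 protein-coding genes with at least 1 CPM was -0.59. All genes were read in the same libraries, so these coefficients are descriptions. *KIF20B* had exons of 34.3% GC and a mean of 194 TPM, whereas *KIF18B* had 58.4% GC and 3.42 TPM, and the median over kinesins went from 102 TPM at 30 to 40% GC to 17.0 TPM at 40 to 50%, 0.851 TPM at 50 to 60% and 0.909 TPM at 60 to 75%. Over all protein-coding genes these medians were 27.8, 9.33, 0.942 and 0.247 TPM, so the kinesin median of the last bin, over 6 genes, was not lower than that of the bin before it.

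**Figure D1:**
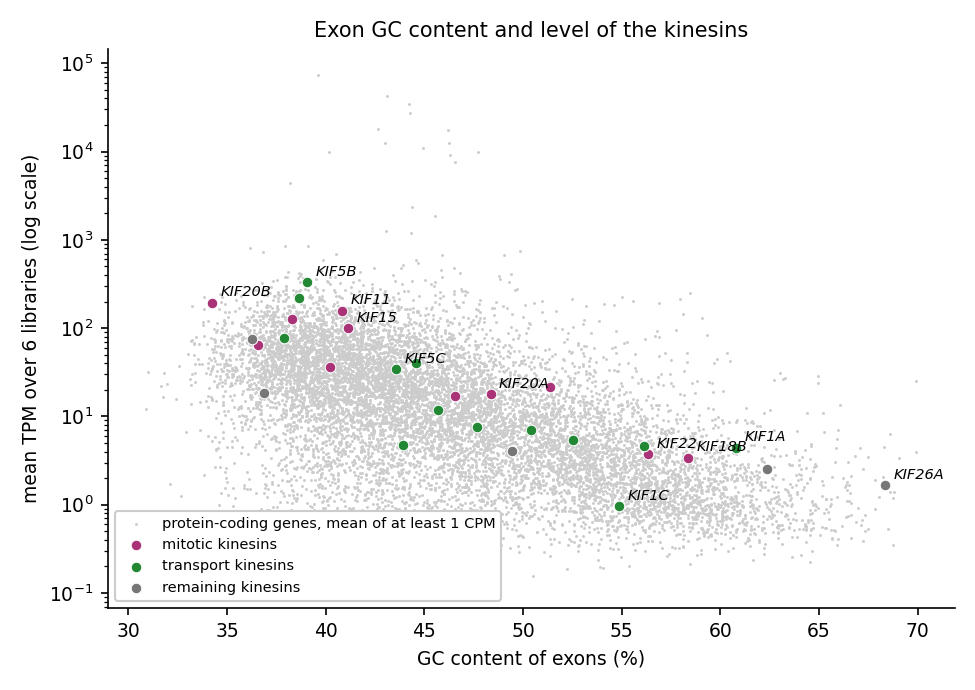
Exon GC content (x axis, percent) against the mean level over the 6 libraries (y axis, TPM on a log scale) for the 29 kinesins with a mean of at least 1 CPM, coloured by group, over 11050 protein-coding genes with at least 1 CPM in grey. The kinesins run from *KIF5B* and *KIF20B* at the upper left to *KIF26A*, with 68.3% GC, at the lower right.

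*KIFC1* stood out as the mitotic kinesin with almost no reads. This minus-end directed kinesin-14 focuses spindle poles and clusters extra centrosomes. It had 1.28, 0.397 and 0.529 CPM in the EtOH replicates and 0.744, 0.931 and 1.18 CPM in the Tet replicates, and the labels overlapped (log2 fold change 0.36, SE 0.51, adjusted p = 0.874). Its exons have 55.6% GC, and the antisense pseudogene *RPL12P1* covers 13.99% of their bases. Of the 20 protein-coding genes that start within 200 kb of it on chromosome 6, 19 (95%) had a mean under 2 CPM, with a median of 0.392 CPM and the highest, *RPS18*, at 15.6 CPM. Among 3879 protein-coding genes elsewhere with a GC content within 3 points of that of *KIFC1*, 65.5% were under 2 CPM and the median was 0.696 CPM. What sets the low level of *KIFC1* was not tested.

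In the comparison of Tet with EtOH, 11 of the 12 mitotic kinesins had a negative log2 fold change and 15 of the 23 other kinesins tested a positive one. The median log2 fold change was -0.43 over the mitotic kinesins, 0.15 over the transport kinesins, -0.01 over the remaining members and -0.01 over all 22443 genes tested, of which 50.7% were negative. No kinesin passed an adjusted p of 0.05 in edgeR's quasi-likelihood test, where 53 of all genes did (0.236%, with 0.147% higher and 0.0891% lower in Tet). The count of kinesins was 0 with limma-voom, where 58 of all genes passed. It was 1 of 35 with DESeq2, where 2.93% of genes passed on those that edgeR tested and 2.02% on all genes with a count. At an unadjusted p under 0.05, 4 of 12 mitotic kinesins were lower in Tet against 4.94% of all genes, and 3 of the 23 others were higher against 5.83% of all genes (10.8% in either direction). All Tet libraries lay below all EtOH libraries for 4 mitotic kinesins (8.28% of all genes) and above them for 4 others (9.2% of all genes, 17.5% in either direction). No other kinesin lay below and no mitotic kinesin above in this way.

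**Figure D2:**
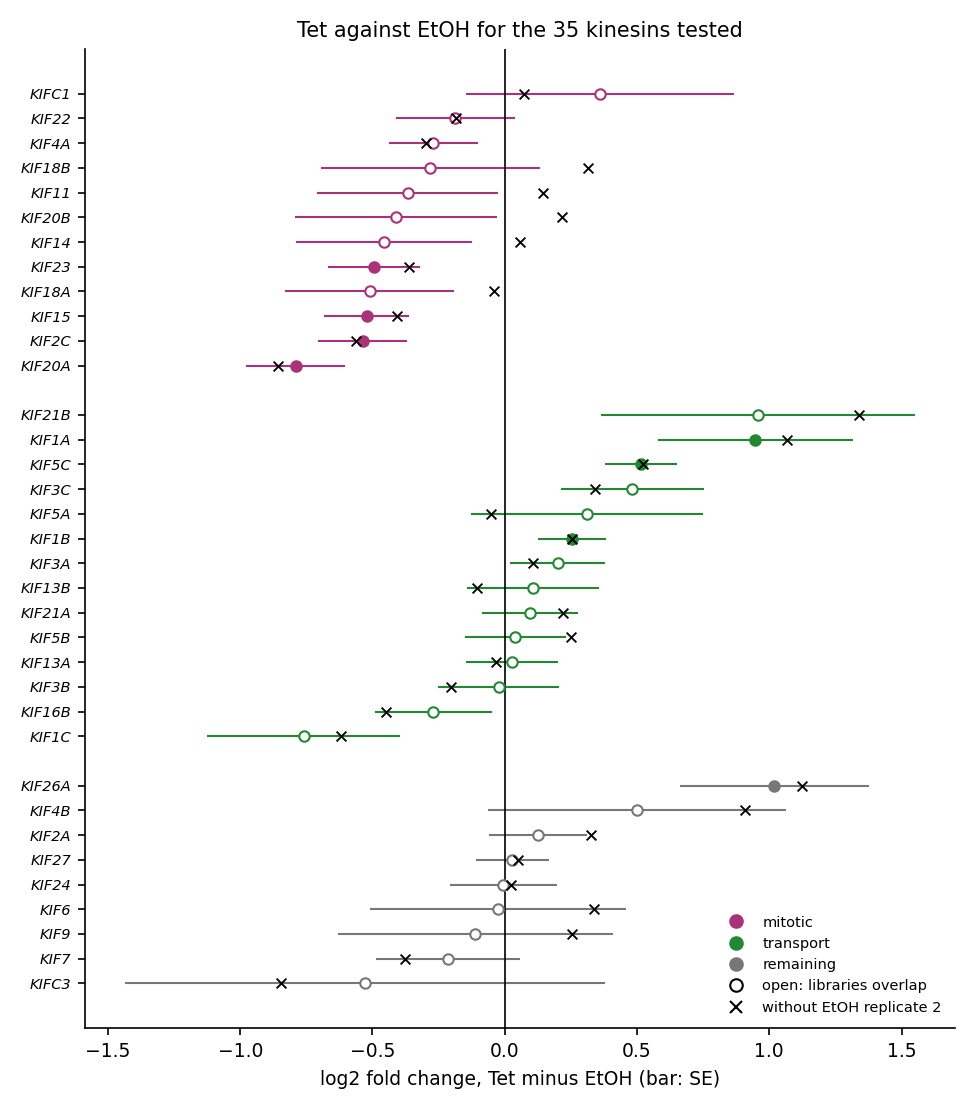
Log2 fold change of Tet against EtOH (x axis) with its SE (bars) for the 35 kinesins tested, by group, where filled points mark members whose libraries do not overlap between the labels and crosses give the value without EtOH replicate 2. *KIF20A*, *KIF2C*, *KIF15* and *KIF23* are filled on the left, *KIF1A*, *KIF5C*, *KIF1B* and *KIF26A* on the right, and the crosses of *KIF11*, *KIF14*, *KIF18B* and *KIF20B* lie on the other side of 0.

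*KIF20A*, at chr5:138178719-138187723, differed the most among the mitotic kinesins in size and in p. It is a kinesin-6 that brings the chromosomal passenger complex to the central spindle for cytokinesis. Its level was 36.5, 28.3 and 30.2 CPM in the EtOH replicates and 15.3, 20.7 and 18.9 CPM in the Tet replicates. Every Tet library was thus below every EtOH library, with means of 31.7 ± 4.28 and 18.3 ± 2.73 CPM (SD, n = 3). The log2 fold change was -0.79 (SE 0.19), with an unadjusted p of 0.00249 and an adjusted p of 0.157 by edgeR's quasi-likelihood test. It passed the threshold in the DESeq2 fits (adjusted p = 0.0145 on the genes that edgeR tested, where 2.93% of genes passed, and 0.0386 on all genes with a count, where 2.02% did) and without EtOH replicate 2 (adjusted p = 0.0384, 2.89% of genes). Over all alternatives its adjusted p ranged from 0.0145 to 0.530, and its log2 fold change from -0.89 to -0.68 when each library was left out in turn. *KIF20A* shares 5.35% of its exon bases with *CDC23* and *BRD8* on the opposite strand, which cannot be separated here because strand was not used in counting.

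The central spindle motor *KIF23*, the kinesin-6 partner of *RACGAP1* in the centralspindlin complex, had 97.1, 118 and 88.0 CPM in EtOH and 69.4, 83.0 and 62.4 CPM in Tet. Its Tet libraries also lay below all EtOH libraries (log2 fold change -0.49, SE 0.18, adjusted p = 0.354). *KIF20B*, the third kinesin-6, which acts late in cytokinesis, had 334, 936 and 383 CPM in EtOH and 339, 538 and 365 CPM in Tet. Here replicate 2 was the highest library under both labels and the labels overlapped (log2 fold change -0.41, SE 0.38, adjusted p = 0.785). *KIF14*, a kinesin-3 that works with citron kinase in cytokinesis, had 254, 616 and 288 CPM in EtOH and 246, 353 and 246 CPM in Tet, with the same high replicate 2 and an overlap (log2 fold change -0.46, SE 0.33).

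Among motors that set up the spindle, *KIF15* showed the clearer separation. *KIF15*, a kinesin-12 that can stand in for *KIF11*, had 204, 259 and 215 CPM in EtOH and 148, 178 and 146 CPM in Tet. All its Tet libraries were below all EtOH libraries, and the log2 fold change was -0.52 (SE 0.16, adjusted p = 0.271). *KIF11*, the kinesin-5 that pushes spindle poles apart, had 227, 543 and 255 CPM in EtOH and 220.3, 348 and 226 CPM in Tet. EtOH replicate 2 was far above the others, the labels overlapped, and the log2 fold change was -0.37 (SE 0.34, adjusted p = 0.785).

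Motors of chromosomes and microtubule ends gave a mixed picture. *KIF2C*, a kinesin-13 that shortens microtubules at centromeres, had 37.5, 32.5 and 31.8 CPM in EtOH and 20.4, 26.6 and 23.1 CPM in Tet. The labels did not overlap (log2 fold change -0.54, SE 0.17, adjusted p = 0.287), and a gene on the opposite strand covers 4.8% of its exons. *KIF18A*, a kinesin-8 that dampens chromosome movement at the metaphase plate, had 88.1, 189 and 88.7 CPM in EtOH and 85.1, 107 and 64.9 CPM in Tet (log2 fold change -0.51, SE 0.32). *KIF18B*, the kinesin-8 of astral microtubules, had 4.21, 10.7 and 4.30 CPM in EtOH and 4.11, 7.14 and 4.53 CPM in Tet (log2 fold change -0.28, SE 0.41). Both kinesin-8 genes overlapped between the labels, with replicate 2 the highest of each. The chromokinesin *KIF4A*, which acts with *PRC1* at the central spindle, had 34.5, 29.7 and 29.1 CPM in EtOH and 24.7, 29.4 and 23.3 CPM in Tet (log2 fold change -0.27, SE 0.17). The chromokinesin *KIF22*, which pushes chromosome arms away from the poles, had 7.09, 6.28 and 5.49 CPM in EtOH and 5.00, 5.36 and 6.19 CPM in Tet (log2 fold change -0.19, SE 0.22). Tet replicate 2 of *KIF4A* and Tet replicate 3 of *KIF22* lay within the EtOH range.

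**Figure D3:**
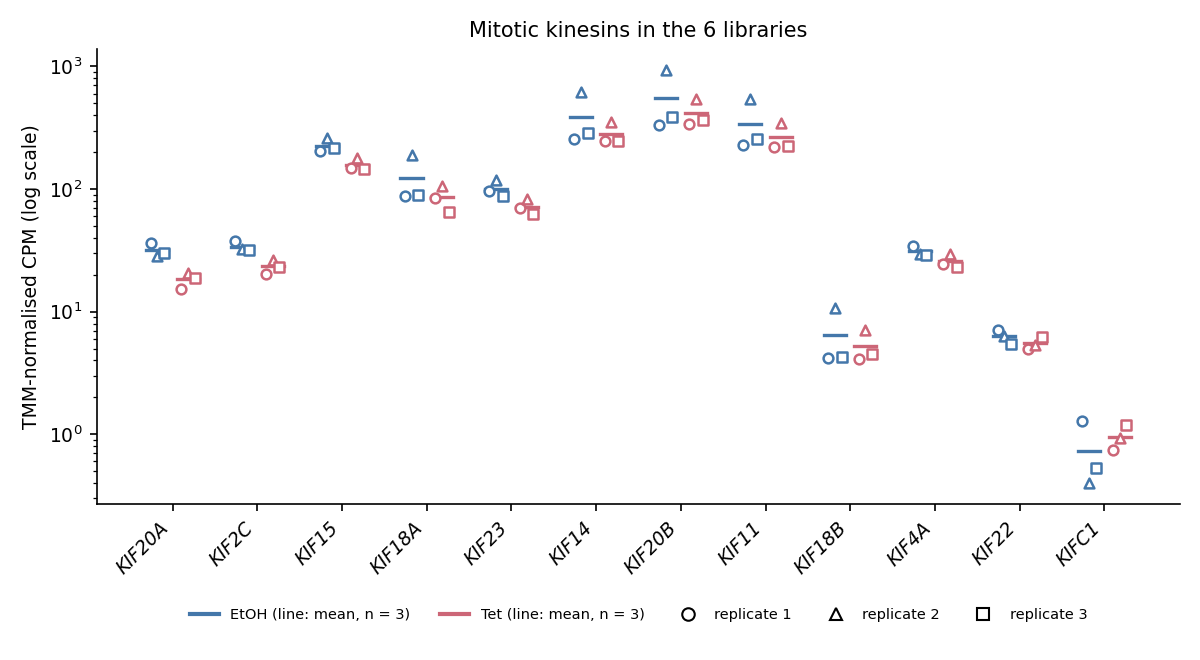
Level of the 12 mitotic kinesins in each library (y axis, TMM-normalised CPM on a log scale), EtOH in blue and Tet in red, with the replicate number as the symbol and the mean of 3 libraries as a line, ordered by log2 fold change. The Tet points of *KIF20A*, *KIF2C*, *KIF15* and *KIF23* lie below all their EtOH points, and the triangles of EtOH replicate 2 stand well above the other EtOH libraries for *KIF18A*, *KIF14*, *KIF20B*, *KIF11* and *KIF18B*.

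The mitotic kinesins thus differed among themselves in how far 1 library carried the difference. EtOH replicate 2 was over 1.5 times the mean of the other EtOH libraries for *KIF11* (2.26), *KIF14* (2.27), *KIF18A* (2.13), *KIF18B* (2.52) and *KIF20B* (2.61), which is 5 of 12 mitotic kinesins against 20.1% of all genes tested. For *KIF20A*, *KIF2C*, *KIF4A* and *KIF22* the same ratio lay between 0.848 and 0.998, and for *KIF15* and *KIF23* it was 1.23 and 1.27. EtOH replicate 2 was the highest EtOH library for 7 mitotic kinesins (41.7% of all genes), and replicate 2 was the highest under both labels for the same count of 7 (24.7% of all genes). Without EtOH replicate 2, the log2 fold change was 0.14 for *KIF11*, 0.06 for *KIF14*, 0.31 for *KIF18B*, 0.21 for *KIF20B* and -0.04 for *KIF18A*, and the mitotic median was -0.11. *KIF20A* (-0.86), *KIF2C* (-0.56), *KIF15* (-0.41), *KIF23* (-0.36), *KIF4A* (-0.30) and *KIF22* (-0.18) remained negative there. Without replicate 2 of both labels, an alternative added after the data were seen, the mitotic median was -0.20 and *KIF15*, *KIF20A* and *KIF2C* passed the adjusted threshold, where 3.77% of all genes did.

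The members that were high in EtOH replicate 2 include AT-rich genes of the mitotic group, *KIF20B* (34.3% GC), *KIF18A* (36.6%), *KIF14* (38.3%) and *KIF11* (40.8%), and also *KIF18B* (58.4%), while *KIF23* (40.2%) and *KIF15* (41.1%) were not among them. In a fit that also removed the trend with GC content from each library, added after the data were seen, the log2 fold changes were -0.36 for *KIF11*, -0.44 for *KIF14*, -0.51 for *KIF18A*, -0.47 for *KIF18B*, -0.39 for *KIF20B* and -0.74 for *KIF20A*. No kinesin passed the adjusted threshold in that fit, where 0.517% of all genes did. The part of GC content in the high values of EtOH replicate 2 was not tested beyond this.

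Taken per library, the median level of the 12 mitotic kinesins on the log2(TPM + 1) scale was 5.10, 5.26 and 4.93 in the EtOH replicates and 4.51, 4.76 and 4.32 in the Tet replicates. All Tet values were below all EtOH values, with means of 5.09 ± 0.167 and 4.53 ± 0.224 (SD, n = 3). The middle members of the 12 in mean TPM were *KIF23* (36.0 TPM) and *KIF2C* (21.5 TPM). Both are among the 4 mitotic kinesins whose Tet libraries all lay below the EtOH libraries. This median therefore restates the separation of these genes, while the other 8 members overlapped between the labels. The median of the 30 others was 2.02, 1.81 and 1.95 in EtOH and 1.98, 1.99 and 2.15 in Tet, and these overlapped. Summed TPM gave another picture of the mitotic group, with 618, 1353 and 659 in EtOH and 561, 774 and 488 in Tet. That sum comes mostly from *KIF20B*, *KIF11*, *KIF14* and *KIF15*, and it overlapped between the labels. The mitotic median minus the median of the others was -0.53 on the scale of log2 fold changes, and it stayed between -0.68 and -0.28 when any 1 library was left out. No p is given for these medians, since the groups of genes were chosen with results known.

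Among the transport kinesins, the kinesin-1 heavy chains differed from each other. *KIF5C*, at chr2:148875227-149026759, had 342, 346 and 345 CPM in EtOH and 458, 529.6 and 488 CPM in Tet. The EtOH libraries were nearly equal (344.5 ± 2.37 CPM) and all Tet libraries lay above them (492 ± 35.9 CPM). The log2 fold change was 0.51 (SE 0.14, unadjusted p 0.00472, adjusted p = 0.199). Leaving out any 1 library kept the log2 fold change of *KIF5C* between 0.46 and 0.56, and the fit with GC correction gave 0.53. *KIF5B* had 573, 881 and 632 CPM in EtOH and 682, 783 and 679 CPM in Tet, which overlapped (log2 fold change 0.04, SE 0.19), and its sign changed when some single libraries were left out. *KIF5A*, the other neuronal heavy chain, ranged from 11.8 to 48.1 CPM over the libraries (log2 fold change 0.31, SE 0.44).

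In kinesin-3, whose members carry synaptic vesicle precursors and mitochondria, *KIF1B* was even across replicates and *KIF1A* was not. *KIF1B*, on the short arm of chromosome 1, had 242, 238 and 240.4 CPM in EtOH and 294, 284 and 281 CPM in Tet. The labels did not overlap (log2 fold change 0.25, SE 0.13, unadjusted p 0.0815, adjusted p = 0.541), and the value stayed between 0.23 and 0.27 without any 1 library. *KIF1A*, the axonal carrier of synaptic vesicle precursors, had 19.4, 23.5 and 18.3 CPM in EtOH and 23.6, 28.0 and 66.5 CPM in Tet. The lowest Tet library was only just above the highest EtOH library, and Tet replicate 3 was 2.58 times the mean of the other Tet libraries. The log2 fold change of 0.95 (SE 0.37, adjusted p = 0.401) was 0.34 without Tet replicate 3 and 0.55 with GC correction, and the exons of *KIF1A* have 60.8% GC. *KIF1C*, a kinesin-3 that also serves transport outside axons, had 3.54, 4.47 and 3.37 CPM in EtOH and 1.45, 1.81 and 3.42 CPM in Tet, with an overlap by Tet replicate 3 (log2 fold change -0.76, SE 0.36, adjusted p = 0.513). Without that library the value was -1.21.

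The kinesin-2 motors *KIF3A* and *KIF3C*, of cilia and axons, and the kinesin-4 *KIF21A* had libraries that overlapped between the labels. *KIF3A* had 185, 158 and 209 CPM in EtOH and 194, 187 and 254 CPM in Tet (log2 fold change 0.20, SE 0.18). *KIF3C* had 9.76, 7.29 and 10.8 CPM in EtOH and 11.3, 10.1 and 17.5 CPM in Tet (log2 fold change 0.48, SE 0.27). Tet replicate 3 was the highest library of both genes, and neither had an unadjusted p under 0.05. *KIF21A* had 698, 897 and 731 CPM in EtOH and 732, 999.6 and 754 CPM in Tet, with replicate 2 the highest under each label (log2 fold change 0.10, SE 0.18). Of the other transport kinesins, *KIF13A*, *KIF13B*, *KIF16B* and *KIF3B*, which serve endosomes, membrane proteins and cilia, had log2 fold changes between -0.27 and 0.11 and overlapped between the labels. *KIF21B*, at no more than 0.931 CPM in any library, had a log2 fold change of 0.96 (SE 0.59) and overlapped as well.

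**Figure D4:**
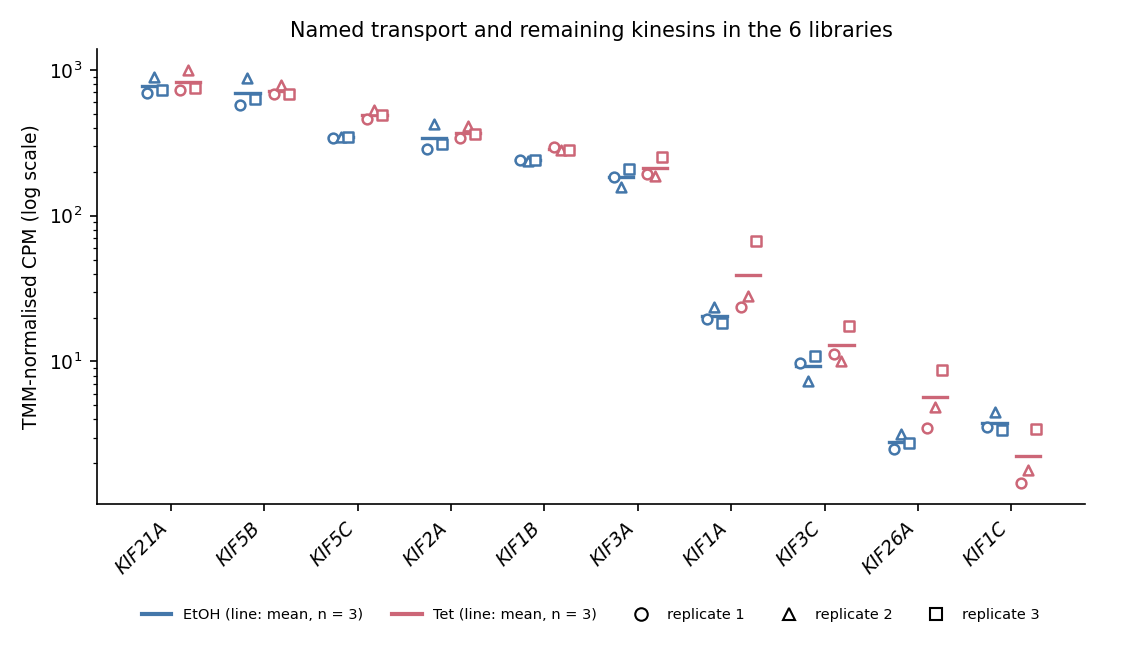
Level of the 10 named transport and remaining kinesins in each library (y axis, TMM-normalised CPM on a log scale), EtOH in blue and Tet in red, with the replicate number as the symbol and the mean of 3 libraries as a line, ordered by level. *KIF5C* and *KIF1B* have tight EtOH points with all Tet points above them, whereas the Tet squares of replicate 3 stand alone above the other Tet points for *KIF1A* and *KIF26A*.

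Of the remaining members, *KIF26A* had an unadjusted p under 0.05. This kinesin-11 lacks motor ATPase activity and is known from enteric neurons. It had 2.51, 3.17 and 2.74 CPM in EtOH and 3.51, 4.85 and 8.68 CPM in Tet, so that the labels did not overlap (log2 fold change 1.02, SE 0.36, adjusted p = 0.343). Its exons have 68.3% GC, Tet replicate 3 was 2.08 times the mean of the other Tet libraries, and the log2 fold change was 0.58 without that library and 0.43 with GC correction. *KIF2A*, a kinesin-13 that trims microtubules in axon branches and at spindle poles, had 286, 426 and 308 CPM in EtOH and 338, 411 and 364 CPM in Tet (log2 fold change 0.13, SE 0.19). It overlapped between the labels, and 21.3% of the bases in its exons also lie in *DIMT1* or in a second gene without a symbol. The other 7 of this group that were tested, with *KIF7* and *KIF27* of cilium and hedgehog biology among them, had log2 fold changes between -0.53 and 0.50 and overlapped in all cases. *KIF4B* is counted here with caution, since reads from *KIF4A* and its retrocopy are hard to assign.

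Set by family, the median log2 fold change was -0.49 over the 3 kinesin-6 genes and -0.40 over the kinesin-8 pair. Without EtOH replicate 2 the kinesin-8 genes had -0.04 (*KIF18A*) and 0.31 (*KIF18B*). In kinesin-6, *KIF20B* had 0.21 there, while *KIF20A* (-0.86) and *KIF23* (-0.36) stayed negative. The median was 0.31 over the 3 kinesin-1 genes and 0.20 over the 3 kinesin-2 genes. It was 0.03 over 7 kinesin-3 genes, a family that holds the mitotic *KIF14* beside transport motors. Within kinesin-13 the mitotic *KIF2C* had -0.54, *KIF2A* 0.13 and *KIF24* -0.01. Within kinesin-4 the mitotic *KIF4A* had -0.27, *KIF7* -0.21, *KIF27* 0.03, *KIF21A* 0.10, *KIF4B* 0.50 and *KIF21B* 0.96.

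*CENPE*, the kinesin-7 that tethers chromosomes to microtubules at kinetochores, is a mitotic kinesin whose symbol the rule does not match. It had 584, 1523 and 648 CPM in EtOH and 560.0, 890.4 and 615 CPM in Tet, and it resembled *KIF20B* in the high EtOH replicate 2 and in its 34.8% GC (log2 fold change -0.42, SE 0.37). The list of partners of the mitotic motors, which includes *CENPE*, had log2 fold changes of a like size. Of these 21 spindle and cytokinesis partners, 20 had a negative log2 fold change (50.7% of all genes), and the median was -0.40. EtOH replicate 2 was the highest EtOH library for 14 of the 21 (41.7% of all genes). It was over 1.5 times the mean of the other EtOH libraries for 9 of them (20.1% of all genes). The median of this list without that library is not given here. None of the 21 passed the adjusted threshold in edgeR or limma-voom. In both DESeq2 fits 1 passed (*AURKA*), where 2.93% (genes that edgeR tested) and 2.02% (all genes with a count) did. At an unadjusted p under 0.05 in edgeR 4 were lower, against 4.94% of all genes. These were *AURKA*, the spindle pole kinase (-0.72, SE 0.16, adjusted p = 0.131), *TPX2*, its activator and a cofactor of *KIF11* and *KIF15* (-0.40, SE 0.13, adjusted p = 0.307), *PRC1*, the midzone bundler that recruits *KIF4A* (-0.48, SE 0.18, adjusted p = 0.371), and the checkpoint kinase *BUB1B* (-0.46, SE 0.19, adjusted p = 0.431). For all 4 of them every Tet library lay below every EtOH library, as for 8.28% of all genes, with *AURKA* at 27.6, 25.8 and 24.6 CPM in EtOH and 16.3, 16.0 and 14.9 CPM in Tet.

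For the joint list of regulators and markers of cell cycle transcription the median was closer to 0 than for these partners. The values of *CCNB1* and *MKI67*, given below, were not. Over 13 of 15 genes tested the median log2 fold change was -0.13, with 10 negative (50.7% of all genes). None passed the adjusted threshold in edgeR, DESeq2 or limma-voom. At an unadjusted edgeR p under 0.05 there were 2 (10.8% of all genes), *CCNB1* (-0.62, SE 0.27) and *E2F4* (0.97, SE 0.42). *FOXM1*, an activator of mitotic genes that acts through CHR promoters, had 8.43, 7.94 and 7.41 CPM in EtOH and 5.71, 8.01 and 9.87 CPM in Tet (log2 fold change -0.01, SE 0.25), a sign that changed with upper quartile scaling. *MKI67*, a marker of proliferating cells, had 366, 231 and 287 CPM in EtOH and 199, 214 and 243 CPM in Tet, which overlapped (log2 fold change -0.43, SE 0.19, adjusted p = 0.474).

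Partners of the transport motors lay on the other side. Of 22 kinesin light chains and adaptors 20 were tested. A positive log2 fold change was seen for 14 of them, against 11069 of all 22443 genes, and the median was 0.28. None passed the adjusted threshold with any of the 3 tools, and 3 were higher at an unadjusted edgeR p under 0.05, against 5.83% of all genes. *KLC1*, the light chain that links kinesin-1 to cargo, had 40.5, 37.3 and 39.8 CPM in EtOH and 51.9, 55.9 and 66.2 CPM in Tet (log2 fold change 0.56, SE 0.16, adjusted p = 0.216), although other genes cover 40.6% of its exons. *KIFAP3*, the subunit that joins *KIF3A* and its partners to cargo, had 73.0, 68.8 and 78.0 CPM in EtOH and 98.5, 93.2 and 108 CPM in Tet (log2 fold change 0.45, SE 0.14, adjusted p = 0.287). *TRAK2*, the mitochondrial adaptor of KIF5 proteins, had a log2 fold change of 0.36 (SE 0.15, adjusted p = 0.444). The Tet libraries of all 3 lay above all EtOH libraries, as for 9.2% of all genes. Of 25 genes of dynein and dynactin, the motor of the opposite direction, 24 were tested. Of these, 19 were positive, against 11069 of all 22443 genes, with a median of 0.25, and none passed the adjusted threshold with these tools. *PAFAH1B1* (0.52, SE 0.19), a dynein regulator needed in migrating neurons, and the light chain *DYNLL1* (0.45, SE 0.20) had an unadjusted p under 0.05. That count of 2 of 24 is near the share of all genes (5.83% higher). *DYNC1I2*, an intermediate chain, came next in p (0.29, SE 0.14).

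Marker genes of cell types also differed between the labels, which was measured beside the kinesins and whose part in their values was not tested. Of 10 sympathetic neuroblast markers tested, 8 were higher in Tet at an unadjusted p under 0.05, against 5.83% of all genes (median log2 fold change 1.11). *DDC*, the decarboxylase of catecholamine synthesis, passed the adjusted threshold in edgeR (3.55, SE 0.41, adjusted p = 0.0280), and *ISL1* (1.18, SE 0.27) and *GATA2* (1.75, SE 0.45) had the next lowest p. The count past the adjusted threshold was 1 with limma-voom, where 58 of all genes passed. It was 5 with DESeq2 on the genes that edgeR tested (2.93% of genes passed) and 4 with DESeq2 on all genes with a count (2.02%). Among 9 fibroblast and mesenchymal markers tested, 7 were negative (50.7% of all genes) with a median of -0.54. At an unadjusted p under 0.05, 2 were lower and 2 higher, against 4.94% and 5.83% of all genes. *PDGFRA* (-0.97, SE 0.14, adjusted p = 0.0464) passed in edgeR. *COL3A1* had 1.03 (SE 0.24) and passed in both DESeq2 fits beside *PDGFRA*, *SNAI2* had 1.84 (SE 0.70), *PRRX1* had -1.02 (SE 0.34), and *COL1A2* was at 0 counts. The summed fibroblast list ranged from 189 to 302 CPM in EtOH and from 124 to 175 CPM in Tet. Of the 4 Schwann cell markers tested, 3 were negative and 1 positive, with values from -0.51 to 0.59 and a median of -0.10. Among them were *ERBB3* with -0.51 and *SOX10* with -0.20. These 4 markers and the immune marker *PTPRC* (-0.52) had no unadjusted p under 0.05. None of them passed the adjusted threshold with the other tools.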

How the data were processed

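Total RNA, depleted of ribosomal RNA by enzymatic digestion, was sequenced as paired-end libraries, 3 labelled EtOH and 3 labelled Tet. The authors deposited 1 table per library that lists an estimated count for each gene, scaled for neither depth nor length. Per the file headers, uniquely aligned read pairs were counted over exons by featureCounts 1.6.4 with no strand setting, and a pair that overlapped several genes was divided between them. The submitters' processing notes name STAR 2.7.1a, featureCounts 1.5.1 and GRCh38. Totals ranged from 27933378 to 40498065 counts, and all 92 spike-in sequences had 0 counts and were left out.

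Here, estimated counts were rounded, filtered by filterByExpr, scaled by TMM and compared with edgeR 4.0.16 (quasi-likelihood F test, R 4.3.3) over 22443 genes, with Benjamini-Hochberg adjustment over all of them and a threshold of 0.05. The design had assumed whole counts, and rounding made them so. The SE is the size of the log2 fold change divided by the square root of F. CPM are TMM-normalised. TPM were computed from counts and union exon length. limma 3.58.1 (voom) and DESeq2 1.42.0 were alternatives, beside other scalings, filters, membership of the groups, a replicate block, and each library left out in turn. A GC correction (spline of 5 degrees of freedom per library) and the omission of replicate 2 of both labels were added after seeing the data. The scripts were tested on simulated data.

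The members and gene lists were chosen with earlier results of these data known. Values per library are given for the 12 mitotic kinesins, for other kinesins with an unadjusted p under 0.05, for the 5 others highest in TPM, and for the 5 others with the largest log2 fold change in size among those with a mean of at least 1 CPM. From the partner and marker lists, *CENPE*, *KLC1*, *KIFAP3*, *FOXM1* and *MKI67* are named, with every gene past the adjusted threshold and the 3 lowest p of each list. Some marker genes are not reported here. Other genes with an unadjusted p under 0.05, other members, defining markers such as *TH*, genes at 0 counts, and *RPS18* were named after their values were seen. No 2 libraries of a label agreed within counting noise. Coordinates are on GRCh38 and counted from 1, and promoter sequences are from RefSeq (GRCh38.p14).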

Additional observations from a re-analysis of the deposited data

How the results depend on the processing

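The count of kinesins past the adjusted threshold was 0 in the reported fit, with 7 of 35 at an unadjusted p under 0.05. It was 1 (*KIF20A*) in both DESeq2 fits, 3 with the replicate block (*KIF15*, *KIF20A* and *KIF5C*), 3 without replicate 2 of both labels, and 0 to 1 without each library in turn. It was 0 with limma-voom, the other scalings and filters, unrounded counts, mitochondrial genes removed and GC correction. Over all genes the count of 53 became 485 and 606 with DESeq2 (all genes with a count and the genes edgeR tested), 116 with GC correction, 302 without a filter, 675 with the replicate block, 874 without replicate 2 of both labels, and 0 to 692 without each library (692 without EtOH replicate 2, and at most 2 without any other). Same-numbered libraries deviated together with correlations of 0.0603, 0.51 and 0.219 over 22443 genes, and 3 of 6 libraries correlated best with their own number, so the numbers were not taken to pair them. The mitotic median of -0.43 was -0.20 without replicate 2 of both labels and -0.62 to -0.11 without each library. It was negative in every alternative tried, as was its difference from the median of the others.

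For the 27 genes of the naming rule, 463 of 486 comparisons kept the direction and the side of the threshold, and 9 passed the threshold. The other 14 changed sign. *KIF18B* was 0.028 without replicate 2 of both labels and *FOXM1* 0.0015 with upper quartile scaling. Without 1 library the ranges were -0.61 to 0.14 for *KIF11*, -0.71 to 0.059 for *KIF14*, -0.56 to 0.31 for *KIF18B*, -0.69 to 0.21 for *KIF20B*, -0.10 to 0.25 for *KIF5B*, -0.060 to 0.22 for *KIF21A*, -0.0062 to 0.33 for *KIF2A*, -0.68 to 0.17 for *CENPE* and -0.20 to 0.17 for *FOXM1*. At this depth 3 counts were at most 0.107 CPM, which limits *KIFC1*, *KIF4B*, *KIF6*, *KIF9*, *KIF21B* and *KIFC3*, each at or under about 1 CPM.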
